A study of Arabidopsis thaliana with 27 samples.

Results

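The comparison described here set leaves whose wounds received oral secretions of the cabbage white *Pieris brassicae* (Pb OS) against leaves whose wounds received water (W), 3 h after wounding. Its members were the 4 Pb OS and the 3 W libraries of that time, 7 of the 27 libraries of the series, chosen by their labels, and all 18899 genes of the expression table were compared. RNA sequencing profiled leaves of *Arabidopsis thaliana* after wounding with water or with secretions of *P. brassicae* or *Spodoptera littoralis* (Sl OS), at 3 h and 24 h, beside unwounded control leaves taken at 3 h. All plants were Col-0, aged 5 weeks and grown in short days. Wounding pierced 3 leaves per plant with 4 holes of 1 mm. Each hole received 2 µl of water or OS, and leaf discs of 1 cm around the wounds were pooled into a library. The libraries of a group are independent replicates by the methods. Pb OS and W libraries thus shared the wound and the drop and differed in the liquid. The larvae that gave the Pb OS were reared on cabbage and moved to Arabidopsis 1 day before collection, and water was the one control liquid, so the plant matter in OS and the insect's own components cannot be told apart. 1 further W sample of that time was excluded before deposit as an outlier and is not analysed here.

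Plants recognise chewing insects through the wound itself and through compounds in the saliva and regurgitant that larvae leave in it. Jasmonate (JA) made at the wound releases transcription factors from JAZ repressors, and these factors switch on defence genes. In Arabidopsis the main chemical defence is the glucosinolates (GS), sulfur-rich glucosides made from methionine (aliphatic GS) or tryptophan (indole GS) that turn toxic when damaged cells mix them with myrosinase. *P. brassicae* feeds on such plants as a specialist.

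The 7 libraries held 23345796 to 30706221 reads on genes. Levels are given as CPM, the reads of a gene per 1000000 reads of a library after scaling and correction for plant batch. Before that correction 1 read was worth 0.0310 to 0.0384 CPM, so printed levels and reads are not proportional. A difference is the log2 difference of Pb OS minus W from a linear model over all 27 libraries with its standard error (SE), and a gene was called higher or lower at an adjusted p under 0.05. With Pb OS 2198 genes were called higher, 11.6% of those tested, and 2830 lower, which is 15%. Of these, 959 were higher by over 1 log2 unit (5.07%) and 1414 lower by over 1 unit (7.48%). The median difference over all genes was -0.01. The groups did not overlap, with every Pb OS value above every W value, in 2735 genes (14.5%), and every Pb OS value was below every W value in 3123 genes (16.5%). Within both of the 2 plant batches that the table was corrected for, 76.7% of all genes had the same sign, and 99.8% of the 5028 called genes, whose call was made on the same libraries.

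The 4 Pb OS libraries differed in how far they lay from W. Over the genes called higher, the median distance from the W mean was 0.77, 0.56, 1.07 and 1.098 log2 units in Pb OS replicates 1 to 4, and over the genes called lower it was -0.88, -0.56, -1.34 and -1.11. Replicate 2 was thus the nearest to W on both sides. The 3 W libraries lay within 0.067 of the W mean on both sides. They form that mean and helped to choose these genes, so this does not compare the spread of the groups. Without Pb OS replicate 2 the counts were 3198 higher and 3679 lower. They were 1215 and 1717 without W replicate 1, 1370 and 1805 without Pb OS replicate 3, and 1308 and 2076 without Pb OS replicate 4. The genes higher by over 1 log2 unit were 638 without Pb OS replicate 4, and those lower by over 1 unit 941 without Pb OS replicate 3. In what follows the 7 libraries are also written W1 to W3 and Pb1 to Pb4 by their replicate number, and "rising to" gives the adjusted p where leaving out a library ended a call. In all 7 fits that left out 1 library, 934 genes were called higher and 1339 lower.

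**Figure D1:**
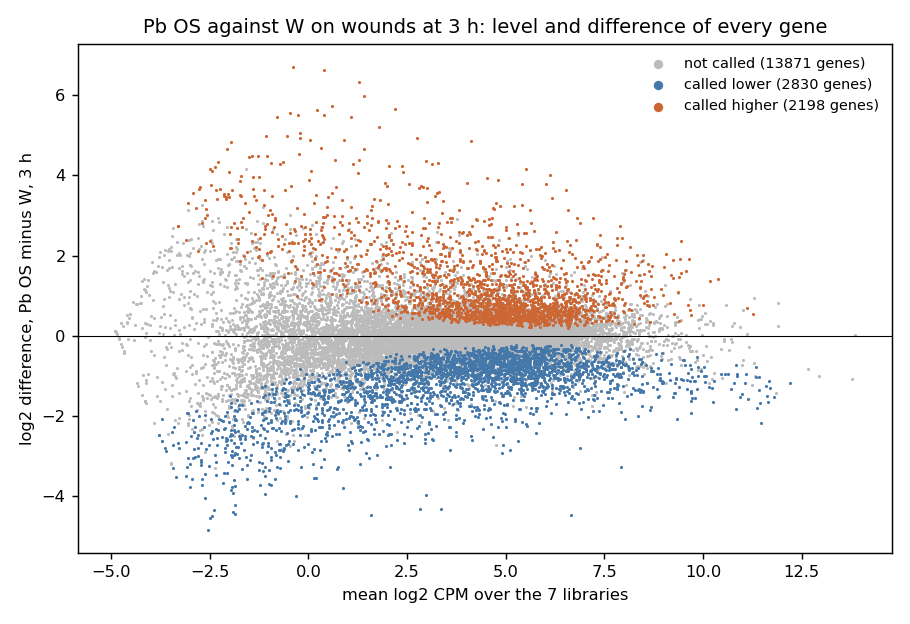
Each point is 1 of 18899 genes. The x axis is the mean log2 CPM over the 3 W and 4 Pb OS libraries of 3 h and the y axis the log2 difference of Pb OS minus W. Orange points are the 2198 genes called higher, blue points the 2830 called lower and grey points those not called. Called genes lie on both sides at all but the lowest levels, and the most abundant called genes lie below 0.

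Among genes of at least 5 CPM in the higher group whose groups did not overlap, the difference was greatest for FAR5 (AT3G44550) at chr3:16137576-16142270 (RefSeq TAIR10.1), a fatty acyl-CoA reductase that makes alcohols for suberin. Its level was 6.79, 3.40, 8.003 and 5.04 CPM with Pb OS and 0.0550, 0.0219 and 0.135 CPM with W, a difference of 6.70 (SE 0.84, adjusted p = 4.08e-05). The W libraries held 0, 0 and 5 reads of it and the Pb OS libraries 137, 55, 394 and 248, so the W level is close to the lowest value the table can hold and the size of the difference depends on the count added before taking logs. AT1G76470 at chr1:28689766-28691659, an NAD(P)-binding protein of the reductase superfamily, had 0.167, 0.0726 and 0.0721 CPM with W and 5.64, 5.13, 18.8 and 13.8 with Pb OS (difference 6.62, SE 0.69, adjusted p = 6.84e-06). PER33 (AT3G49110), a class III peroxidase, had 0.0407, 0.400 and 0.487 CPM with W and 25.2, 15.4, 8.53 and 18.5 with Pb OS (difference 6.33, SE 0.82, adjusted p = 4.7e-05), and the defensin-like gene AT3G59930 had 0.324, 0.181 and 0.270 CPM with W and 14.4, 22.8, 7.75 and 22.7 CPM with Pb OS (difference 5.97, SE 0.61, adjusted p = 6.84e-06). These genes were nearly silent in every W library and were read in every Pb OS library.

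The other 11 genes of this rule rose by 4.68 to 5.74 log2 units. They were NHL10 (AT2G35980), a membrane protein induced in pathogen responses, the reductase gene AT1G09500, the glyoxalase family gene AT1G80160, LEA7 (AT1G52690), a late embryogenesis protein, the nitrate transporter NPF7.2 (AT4G21680), MSRB7 (AT4G21830), which reduces oxidised methionine, the factor NAC055 (AT3G15500), the glutathione transferases GSTU3 (AT2G29470) and GSTU11 (AT1G69930), EXO (AT4G08950), which promotes cell expansion, and GH3.2 (YDK1 in the table, AT4G37390), an auxin conjugase. The smallest adjusted p of the 15 belonged to EXO, at 2.73, 1.84 and 3.33 CPM with W and 55.0, 38.8, 81.5 and 171 CPM with Pb OS (difference 4.86, SE 0.46, adjusted p = 2.34e-06). All 15 kept their call without any 1 library.

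On the lower side the difference was greatest for EXPA8 (AT2G40610) at chr2:16948791-16950705, an expansin that loosens cell walls. It had 17.2, 30.2 and 10.9 CPM with W and 0.774, 2.91, 0.662 and 0.267 with Pb OS (difference -4.49, SE 0.57, adjusted p = 4.5e-05). AT1G73600 at chr1:27669152-27673572, a methyltransferase gene of the phosphoethanolamine type, had 358, 749 and 753 CPM with W and 14.2, 42.2, 37.8 and 22.0 with Pb OS (difference -4.48, SE 0.61, adjusted p = 5.98e-05). XTH31 (AT3G44990), a xyloglucan-modifying enzyme of the wall, had 44.8, 38.6 and 107 CPM with W and 1.94, 2.57, 2.65 and 5.21 CPM with Pb OS (difference -4.32, SE 0.90, adjusted p = 0.00169).

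The remaining 12 lower genes of the rule had differences of -4.33 to -2.94. Those with a known role were the gibberellin-regulated GASA6 (AT1G74670), the light-harvesting gene LHCB2.3 (LHCB2.4 in the table, AT3G27690), the expansin EXPB1 (AT2G20750), the carbonic anhydrase ACA1 (AT3G52720), the guard cell receptor-like kinase AT4G20940 and the GS gene IPMI-SSU3 (IPMI1 in the table, AT3G58990). The others, given by annotation only, were AT1G13650, of unknown function, the auxin-responsive family gene AT4G12980, AT4G02850, the non-coding RNA AT5G03395, the oxygenase family gene AT3G60290 and the acyltransferase family gene AT5G02890. In LHCB2.3 the call was lost without 1 library, with an adjusted p of 0.0792 without W3, and in AT5G03395 it was lost with 0.0539 to 0.122 without W1, W2, W3 or Pb1. The other 13 of the 15 kept their call in each of these fits.

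Measured by the number of transcripts, the 10 greatest gains included TAT3 (AT2G24850), a JA-induced tyrosine aminotransferase, SPE2 (AT4G34710), the arginine decarboxylase of polyamine synthesis, and the glutathione transferase GSTU19 (AT1G78380). SPE2 had 246, 442 and 295 CPM with W and 1105, 699, 1725 and 1614 with Pb OS (difference 1.92, SE 0.31, adjusted p = 0.000231), and GSTU19 416, 352 and 361 CPM with W and 1549, 886, 1885 and 1511 CPM with Pb OS (difference 1.91, SE 0.30, adjusted p = 0.00019). TAT3 had 168, 346 and 332 CPM with W and 1709, 348, 3064 and 2122 CPM with Pb OS, where Pb OS replicate 2 stood level with the W libraries, and its call (difference 2.37, SE 0.81, adjusted p = 0.0347) had an adjusted p of 0.056 to 0.165 without W1, W2, W3, Pb1, Pb3 or Pb4. The 10 greatest losses in CPM were all photosynthesis genes.

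Most genes listed for aliphatic GS synthesis were lower. Of the 17 measured genes of this list 16 were called lower and none higher, against 15% and 11.6% of all genes, and all 17 differences were negative with a median of -1.73. There were 13 to 16 lower genes over the 7 fits without 1 library. A separate list holds enzymes shared by the GS branches. None of its 3 measured genes was called, with differences of -0.06 to 0.33 and a median of 0.24. The chain-elongation enzymes MAM1 (AT5G23010) and MAM3 (AT5G23020), which lengthen methionine, had differences of -1.75 and -2.57. MAM1 had 827, 711 and 594 CPM with W and 274, 445, 219 and 72.7 CPM with Pb OS (adjusted p = 0.008), and MAM3 had 20.5, 35.8 and 19.4 CPM with W and 8.68, 3.22, 5.97 and 1.67 CPM with Pb OS (adjusted p = 0.0056). The isopropylmalate isomerase subunits IPMI-SSU3, with 96.0, 109.5 and 85.3 CPM with W and 16.7, 32.7, 13.1 and 3.57 CPM with Pb OS, and IPMI-SSU2 (IPMI2 in the table, AT2G43100), with 116, 120.3 and 102.4 CPM with W and 21.2, 33.6, 21.0 and 7.45 CPM with Pb OS, changed by -2.94 (SE 0.51, adjusted p = 0.000429) and -2.63 (SE 0.38, adjusted p = 8.93e-05). In all of these the Pb OS values lay below the W values, with replicate 4 the lowest.

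Most genes of the GS core in the aliphatic list were lower as well. CYP79F1 (AT1G16410), which turns chain-elongated methionine into an aldoxime, had 590.1, 538 and 428 CPM with W and 162, 294, 176 and 44.3 with Pb OS (difference -1.90, SE 0.49, adjusted p = 0.00715). CYP83A1 (AT4G13770), which takes the next step, had 769, 719 and 674 CPM with W and 224, 407, 160.3 and 70.1 CPM with Pb OS (difference -2.02, SE 0.40, adjusted p = 0.00118). GSTU20 (AT1G78370), a glutathione transferase assigned to the pathway, had 442, 322 and 317 CPM with W and 47.0, 106, 43.2 and 31.2 CPM with Pb OS (difference -2.81, SE 0.47, adjusted p = 0.000304). Its near neighbour GSTU19, which lies beside it on chromosome 1 and is not assigned to GS synthesis, rose. CYP79F2 (AT1G16400), a sister of CYP79F1 that acts on long-chain substrates, changed by -1.53 (SE 0.38, adjusted p = 0.00554), and BCAT4 (AT3G19710), which starts the elongation, by -1.73 (SE 0.50, adjusted p = 0.0134, rising to 0.0595 without W1 and 0.0642 without Pb4). The sulfotransferase SOT17 (AT1G18590), which ends the core pathway, was the gene not called (difference -0.21, SE 0.38, adjusted p = 0.716). The 4 Pb OS libraries were spread, since the median over the list, taken from the W mean, was -1.44, -0.81, -1.46 and -3.27 log2 units in replicates 1 to 4.

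**Figure D2:**
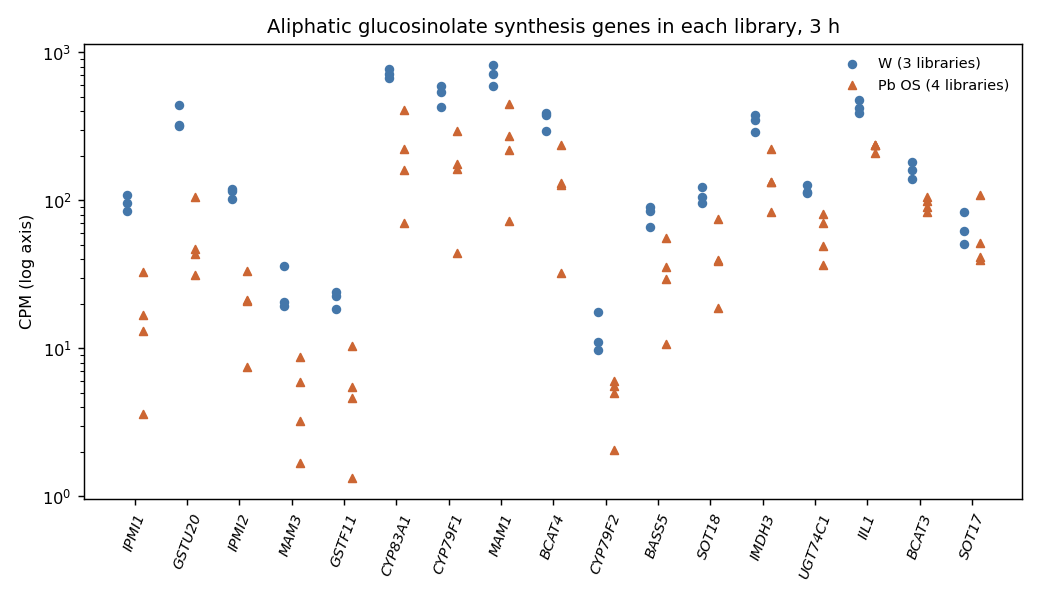
Level of each of the 17 measured genes of aliphatic GS synthesis in the 3 W libraries (blue circles) and the 4 Pb OS libraries (orange triangles) of 3 h, in CPM on a log axis, ordered by the log2 difference. Except for SOT17 at the right, every Pb OS library lies below every W library.

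Of the regulators, MYB28 (AT5G61420), the main activator of aliphatic GS genes, had 82.4, 101.5 and 78.0 CPM with W and 25.4, 60.4, 12.3 and 8.57 CPM with Pb OS (difference -2.12, SE 0.46, adjusted p = 0.00226). Its partners MYB29 (AT5G07690) and MYB76 (AT5G07700) were not called, with differences of -0.78 (SE 0.40, adjusted p = 0.155) and -0.14 (SE 0.41, adjusted p = 0.825). SDI1 (AT5G48850), a repressor of GS synthesis in sulfur-starved plants, fell as well (difference -1.85, SE 0.52, adjusted p = 0.0119, rising to 0.1 without W1). For the indole branch, MYB51 (AT1G18570) had 5.45, 8.59 and 8.32 CPM with W and 16.8, 10.3, 14.98 and 26.8 with Pb OS and MYB122 (AT1G74080) had 0.342, 0.733 and 0.575 CPM with W and 2.05, 2.68, 2.04 and 1.46 CPM with Pb OS. Both were called higher by a small margin, MYB51 at 1.17 (SE 0.43, adjusted p = 0.0486, rising to 0.0745 to 0.201 without W1, W2, W3, Pb1, Pb3 or Pb4) and MYB122 at 1.92 (SE 0.61, adjusted p = 0.0247, rising to 0.0549 to 0.148 without W1, W3 or Pb3), and MYB34 (AT5G60890) was not called (difference 0.75, SE 0.68, adjusted p = 0.431).

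Enzymes that modify the side chain split. The S-oxygenases FMOGS-OX1 (AT1G65860) and FMOGS-OX3 (AT1G62560), which turn methylthio into methylsulfinyl GS, changed by -1.61 (SE 0.43, adjusted p = 0.00929) and -1.35 (SE 0.39, adjusted p = 0.0132, rising to 0.0597 without W1 and 0.0672 without Pb4). FMOGS-OX4 (AT1G62570), of the same family, had 17.97, 23.9 and 17.8 CPM with W and 70.9, 49.0, 66.0 and 87.3 CPM with Pb OS (difference 1.77, SE 0.38, adjusted p = 0.00204), the opposite direction, and FMOGS-OX2 (FMO_GS-OX2 in the table, AT1G62540) rose by a small margin (difference 1.28, SE 0.44, adjusted p = 0.0344, rising to 0.0603 to 0.16 without W1, W3, Pb1, Pb3 or Pb4). Among 18 genes of sulfate uptake and assimilation 3 were called lower (16.7%) and 1 higher (5.56%), against 15% and 11.6% of all genes. 2 to 5 lower genes were called over the 7 fits without 1 library, at 5 without Pb3, and 7 with the batches fitted by time and 5 with only the groups compared in the fit. They were the sulfate transporters SULTR2;1 (AT5G10180), at 177, 154 and 129.6 CPM with W and 47.6, 81.9, 56.1 and 22.6 with Pb OS (difference -1.70, SE 0.29, adjusted p = 0.000353), and SULTR4;2 (AT3G12520) (difference -1.50, SE 0.32, adjusted p = 0.00203), and the cysteine synthase gene OASB (AT2G43750) (difference -0.85, SE 0.23, adjusted p = 0.0103, rising to 0.0624 without W3). The 1 higher gene was GSH2 (AT5G27380), of glutathione synthesis (difference 0.76, SE 0.21, adjusted p = 0.0113, rising to 0.0667 without W3). The APS reductases APR1 (AT4G04610), APR2 (AT1G62180) and APR3 (AT4G21990), with differences of -0.53, -0.85 and 0.26, were not called.

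The pathway that supplies tryptophan moved the other way. Of 17 measured genes of the shikimate route and of tryptophan synthesis 11 were called higher and none lower, with a median of 0.94. There were 8 to 11 higher genes over the 7 fits without 1 library. DHS3 (AT1G22410), a DAHP synthase at the entry of the shikimate route, had 167, 248 and 219 CPM with W and 514, 300.0, 1183 and 932 CPM with Pb OS (difference 1.62, SE 0.36, adjusted p = 0.00277). The gene of chorismate synthase, CS (EMB1144 in the table, AT1G48850), had 101, 134.3 and 122 CPM with W and 282, 217, 448 and 436 CPM with Pb OS (difference 1.48, SE 0.22, adjusted p = 0.00014). ASA1 (AT5G05730), the anthranilate synthase that commits chorismate to tryptophan, changed by 1.05 (SE 0.26, adjusted p = 0.00601), and the tryptophan synthase alpha subunit TSA1 (AT3G54640) had 132, 302 and 199.8 CPM with W and 470.5, 369.5, 751 and 523 CPM with Pb OS (difference 1.35, SE 0.30, adjusted p = 0.00239). Every Pb OS value of these 4 genes was above every W value.

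Genes that use tryptophan changed less evenly. Of 15 genes of indole GS synthesis and transport 3 were called higher and 1 lower, or 20% and 6.67%, against 11.6% and 15% of all genes. There were 1 to 6 higher genes over the 7 fits without 1 library, at 1 without W1 or Pb3 and 6 without W2 or Pb2, and 7 with the batches fitted by time, 7 with only the groups compared in the fit and 5 with the block of 4 label numbers. CYP79B2 (AT4G39950), the first enzyme of the branch, had 109, 231 and 133.5 CPM with W and 271, 219, 377 and 205 CPM with Pb OS, where W replicate 2 exceeded Pb OS replicates 2 and 4 (difference 0.79, SE 0.29, adjusted p = 0.0454, rising to 0.0735 to 0.281 without W1, W3, Pb1 or Pb3). The others called higher were CYP83B1 (AT4G31500), the next enzyme, at 0.76 (SE 0.24, adjusted p = 0.0234, rising to 0.0899 to 0.176 without W1, W3 or Pb3), and GSTF10 (AT2G30870), a glutathione transferase, at 0.76 (SE 0.18, adjusted p = 0.00445). CYP79B3 (AT2G22330) was not called (difference 0.37, SE 0.35, adjusted p = 0.466), nor was CYP81F2 (AT5G57220) (difference -0.64, SE 0.52, adjusted p = 0.383), which acts on the way to the 4-methoxy form. The member called lower was PEN3 (ABCG36 in the table, AT1G59870), a plasma membrane exporter (difference -1.01, SE 0.34, adjusted p = 0.0302, rising to 0.0609 to 0.145 without W1, W3, Pb3 or Pb4). In the camalexin list 3 of 7 measured genes were called higher and none lower, WRKY33 among them. The glutathione transferase GSTF6 (AT1G02930) rose by 2.03 (SE 0.50, adjusted p = 0.00573). PAD3 (CYP71B15 in the table, AT3G26830), the last enzyme of this phytoalexin, had 0.606, 3.33 and 1.42 CPM with W and 45.6, 2.27, 133.7 and 48.8 CPM with Pb OS (difference 4.36, SE 1.24, adjusted p = 0.0131, rising to 0.0845 without W1 and 0.0619 without Pb3). Pb OS replicate 2 lay within the W range there, and the other 3 were above it. CYP71A13 (AT2G30770), of the same pathway, was likewise low in replicate 2 (13.1, 24.7 and 18.3 CPM with W, 94.2, 2.24, 367 and 131 with Pb OS) and was not called (difference 1.63, SE 1.39, adjusted p = 0.404).

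Hormone pathways of defence followed. In JA synthesis, 6 of 16 measured genes were called higher and 1 lower, with a median of 0.44. There were 2 to 6 higher genes over the 7 fits without 1 library, at 2 without W1 and 3 without W3, Pb3 or Pb4. The entry enzymes split by gene. LOX2 (AT3G45140), the main plastid lipoxygenase of the wound response, differed by less than its SE (difference 0.01, SE 0.30, adjusted p = 0.977), while LOX3 (AT1G17420) had 132, 171 and 130.1 CPM with W and 565, 159, 1432 and 903 CPM with Pb OS (difference 2.02, SE 0.49, adjusted p = 0.00474), with replicate 2 inside the W range. ACX1 (AT4G16760), which shortens the chain in peroxisomes, had 174, 250.1 and 208 CPM with W and 568, 378, 1177 and 928 CPM with Pb OS (difference 1.74, SE 0.33, adjusted p = 0.000755). JAR1 (AT2G46370), which joins JA to isoleucine to give the active hormone, had 169, 267 and 202 CPM with W and 359, 334, 874 and 518 CPM with Pb OS (1.205 (SE 0.31, adjusted p = 0.00689, rising to 0.0569 without W1)). AOS (CYP74A in the table, AT5G42650) (allene oxide synthase) and OPR3 (AT2G06050) were not called, with differences of -0.28 (SE 0.42, adjusted p = 0.655) and 0.34 (SE 0.28, adjusted p = 0.39). AOC4 (AT1G13280), an allene oxide cyclase, fell (difference -1.28, SE 0.35, adjusted p = 0.0101), and AOC2 (AT3G25770), of the same family and far more abundant, rose (difference 0.55, SE 0.19, adjusted p = 0.0333, rising to 0.0587 to 0.112 without W1, W2, W3, Pb1, Pb3 or Pb4).

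Enzymes that remove active JA were higher in 5 of 10 measured genes and lower in none, with a median of 1.13. CYP94B3 (AT3G48520), which oxidises JA-Ile, had 184, 183 and 117 CPM with W and 799, 429.5, 883 and 615 CPM with Pb OS (difference 2.02, SE 0.50, adjusted p = 0.00598). The JA hydroxylases JOX3 (JRG21 in the table, AT3G55970) and JOX2 (AT5G05600) rose by 2.45 (SE 0.48, adjusted p = 0.00103) and 1.52 (SE 0.24, adjusted p = 0.000222), and JOX2 had 387, 322 and 257 CPM with W against 1034, 893, 923 and 839 with Pb OS. The amidohydrolase IAR3 (ILL4 in the table, AT1G51760), which splits JA from its amino acid, changed by 1.63 (SE 0.34, adjusted p = 0.00178) and its relative ILL6 (AT1G44350) by 0.99 (SE 0.34, adjusted p = 0.0364, rising to 0.0828 to 0.169 without W1, W3, Pb3 or Pb4). Every Pb OS library exceeded every W library in CYP94B3, JOX3, JOX2 and IAR3.

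The JAZ repressors, of which 13 were measured, had 4 called higher (30.8%) and none lower, against 11.6% and 15% of all genes. There were 1 to 5 higher genes over the 7 fits without 1 library, at 1 without W3 and 2 without W1 or Pb3, and 7 with the batches fitted by time. JAZ3 (TIFY6B in the table, AT3G17860) had 68.1, 57.6 and 58.1 CPM with W and 128, 104, 127 and 156 CPM with Pb OS (difference 1.06, SE 0.19, adjusted p = 0.000604) and kept its call without any 1 library. JAZ10 (AT5G13220) had 14.7, 20.9 and 10.5 CPM with W and 44.8, 39.7, 79.4 and 44.4 CPM with Pb OS (difference 1.75, SE 0.56, adjusted p = 0.0253, rising to 0.0835 to 0.101 without W1, W3 or Pb3), and JAZ1 (TIFY10A in the table, AT1G19180) and JAZ11 (TIFY3A in the table, AT3G43440) rose by 1.37 (SE 0.42, adjusted p = 0.0194, rising to 0.0629 to 0.079 without W1, W3, Pb3 or Pb4) and 0.72 (SE 0.20, adjusted p = 0.0108, rising to 0.0713 without W3). Of the 6 MYC and related factors of JA, MYC2 (AT1G32640) was not called (difference -0.38, SE 0.44, adjusted p = 0.552), MYC4 (AT4G17880) fell (difference -1.21, SE 0.44, adjusted p = 0.0483, rising to 0.0915 to 0.163 without W2, W3, Pb1, Pb3 or Pb4) and none rose. The share of lower genes was 16.7%, near the 15% of all genes. With voom on the recovered reads 1 factor was higher and 0 lower, and with the block of 4 label numbers none was called. The storage proteins VSP1 (AT5G24780) and VSP2 (AT5G24770), classical JA outputs, were not called, with differences of 0.48 (SE 0.92, adjusted p = 0.734) and -0.58 (SE 0.75, adjusted p = 0.603), and in VSP1 the libraries of plant batch 1 were the highest of both groups. NATA1 (AT2G39030), a JA-induced acetyltransferase, rose (difference 1.72, SE 0.51, adjusted p = 0.0159, rising to 0.0523 without W1 and 0.0509 without W3). ORA59 (ERF094 in the table, AT1G06160), which joins JA and ethylene signals, had 0.0272, 0.137 and 0.135 CPM with W and 1.32, 1.26, 0.944 and 1.35 CPM with Pb OS (difference 3.97, SE 0.80, adjusted p = 0.00131), or 0, 2 and 2 against 53, 41, 22 and 32 reads, while the defensin PDF1.2 (PDF1.2A in the table, AT5G44420), its known target, was not called (difference -0.23, SE 0.93, adjusted p = 0.881).

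Ethylene synthesis and feedback genes were higher in 7 of 15. There were 4 to 8 higher genes over the 7 fits without 1 library, at 4 without W1. The ACC synthases ACS11 (AT4G08040) and ACS2 (AT1G01480), which set the rate of ethylene production, had 0.0172, 0.216 and 0.142 and 0.550, 1.66 and 1.41 CPM with W. With Pb OS they had 1.74, 2.71, 3.83 and 10.8 and 4.004, 4.27, 15.2 and 14.8 CPM, with differences of 5.56 (SE 1.08, adjusted p = 0.000966) and 2.86 (SE 0.78, adjusted p = 0.0102, rising to 0.0845 without W1). ACS6 (AT4G11280) was not called (difference 1.13, SE 0.49, adjusted p = 0.0918). The ethylene receptor ERS2 (AT1G04310) rose (difference 1.61, SE 0.39, adjusted p = 0.00455). Among 16 ethylene response factors 3 were higher and 1 lower, or 18.8% and 6.25%, against 11.6% and 15% of all genes. There were 1 to 5 higher genes over the 7 fits without 1 library, at 1 without W3, Pb3 or Pb4 and 5 without Pb2, and 7 with the batches fitted by time, 5 with no block and 10 with only the groups compared in the fit. ERF113 (AT5G13330) had 4.16, 4.24 and 2.96 CPM with W and 18.2, 9.58, 33.9 and 37.1 CPM with Pb OS (difference 2.53, SE 0.43, adjusted p = 0.000368), and ERF115 (AT5G07310) and ERF1A (AT4G17500) rose as well, with differences of 2.02 (SE 0.60, adjusted p = 0.0161, rising to 0.0564 to 0.0914 without W3, Pb3 or Pb4) and 1.59 (SE 0.56, adjusted p = 0.0401, rising to 0.0577 to 0.143 without W1, W2, W3, Pb1, Pb3 or Pb4). A relative of ERF113, ERF114 (AT5G61890), went the other way, from 34.1, 11.5 and 10.7 CPM with W to 3.96, 1.66, 3.98 and 2.79 CPM with Pb OS (difference -2.50, SE 0.63, adjusted p = 0.00656, rising to 0.0681 without W1).

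Chitinases and chitin-induced lectins rose in 6 of 9 measured genes and fell in none, with a median of 2.71 and 4 to 6 higher genes over the 7 fits without 1 library. The study picked several of these genes on these samples, so their direction is not independent evidence. The same holds for other genes that the study reported from these samples. Among them are the aliphatic GS genes, MYB28, MYC4, PER33, ERF114, CSLD5, WOX4, ARR5, ARR8, ARR9, IAA14 and PROPEP1. The legume-type lectin LECb (LEC in the table, AT3G15356) had 10.2, 38.5 and 53.2 CPM with W and 154, 183, 301 and 395 CPM with Pb OS (difference 3.14, SE 0.67, adjusted p = 0.00205), and its homolog LECa (AT3G16530) had 21.1, 58.0 and 84.1 CPM with W and 243, 233, 446 and 639.8 CPM with Pb OS (difference 2.94, SE 0.60, adjusted p = 0.00143). The chitinase gene AT2G43590 changed by 2.83 (SE 0.62, adjusted p = 0.00235), and CHI (AT2G43570), also a chitinase, by 3.87 (SE 1.22, adjusted p = 0.0225, rising to 0.063 to 0.142 without W1, W3, Pb3 or Pb4). The groups did not overlap in the lectins, whereas in CHI the Pb OS library of replicate 2 lay inside the W range.

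The W-box, the DNA element that WRKY factors bind, was searched as TTGACC or TTGACT on both strands in the 250 bases before each gene's annotated start. It was present in 28.3% of all 18833 promoters read, in 33.4% of those of genes called higher, in 37.1% of those higher by over 1 log2 unit and in 24.9% of those called lower. The W-box was 1 of 8 motifs searched, and only it and the E2F site are described further. Shares of others differed too. TGGGCC was in 9.29% of promoters of genes higher by over 1 log2 unit, against 17% of all. GATAAG was in 15.9% of those lower by over 1 unit, against 12.5% of all. The promoters of both lectins are printed because these genes rose together and each holds a W-box close to its start, 41 and 44 bases before it. They are LECb (chr3:5175524-5175773, minus strand) and LECa (chr3:5625520-5625769, minus strand) in RefSeq TAIR10.1, written from 5′ to 3′ with the W-box in capitals.
LECb: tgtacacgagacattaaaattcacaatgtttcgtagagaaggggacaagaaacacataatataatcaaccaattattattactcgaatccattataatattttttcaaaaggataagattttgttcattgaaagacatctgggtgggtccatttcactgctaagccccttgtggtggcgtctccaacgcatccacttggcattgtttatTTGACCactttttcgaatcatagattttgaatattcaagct
LECa: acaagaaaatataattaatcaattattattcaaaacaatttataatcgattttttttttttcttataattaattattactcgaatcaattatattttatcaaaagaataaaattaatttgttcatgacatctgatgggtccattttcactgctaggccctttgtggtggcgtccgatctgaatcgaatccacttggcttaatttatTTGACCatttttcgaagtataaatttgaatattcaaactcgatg
A match describes the letters of the window and says nothing of binding.

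Among transcription factors of stress, WRKY genes were called higher in 11 of 55 and lower in 1, or 20% and 1.82%, against 11.6% and 15% of all genes. The lower member was WRKY16 (AT5G45050), which is annotated as a TIR-NBS-LRR resistance protein (difference -0.69, SE 0.13, adjusted p = 0.00067). WRKY40 (AT1G80840), a repressor of defence genes, had 11.5, 22.1 and 15.9 CPM with W and 60.1, 41.1, 179 and 178 CPM with Pb OS (difference 2.56, SE 0.64, adjusted p = 0.00582). WRKY45 (AT3G01970) had 1.54, 2.62 and 1.11 CPM with W and 8.21, 6.90, 10.01 and 9.81 CPM with Pb OS (difference 2.40, SE 0.38, adjusted p = 0.000206). WRKY33 (AT2G38470), which activates camalexin synthesis, had 24.4, 24.9 and 28.3 CPM with W and 31.9, 32.7, 56.5 and 95.5 CPM with Pb OS, a small change (difference 0.93, SE 0.33, adjusted p = 0.0409, rising to 0.0743 to 0.19 without W1, W2, W3, Pb3 or Pb4). The NAC factors of senescence and stress were higher in 7 of 12. There were 6 to 11 higher genes over the 7 fits without 1 library, at 11 without Pb2. NAC019 (AT1G52890), a target of JA signalling, had 47.0, 41.0 and 30.4 CPM with W and 304, 140.1, 353 and 381 CPM with Pb OS (difference 2.82, SE 0.41, adjusted p = 9.31e-05), and NAC055 had 1.66, 0.515 and 1.07 CPM with W and 53.9, 12.0, 25.6 and 43.8 CPM with Pb OS (difference 4.92, SE 0.81, adjusted p = 0.000292). Of the ZAT and AZF zinc-finger factors of oxidative stress 7 of 10 were higher. 3 to 9 higher genes were called over the 7 fits without 1 library, at 3 without W1, Pb3 or Pb4. ZAT12 (AT5G59820) had 4.21, 3.11 and 5.26 CPM with W and 32.0, 15.4, 71.2 and 47.7 CPM with Pb OS (difference 3.14, SE 0.61, adjusted p = 0.000944). In NAC019, NAC055 and ZAT12 all Pb OS values exceeded all W values, with replicate 2 the lowest of the 4.

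Salicylate (SA) genes were mixed. Of 19 genes of SA synthesis and signalling 5 were called higher (26.3%) and none lower, against 11.6% and 15% of all genes. 2 to 8 higher genes were called over the 7 fits without 1 library, at 2 without W1, W3, Pb3 or Pb4, 3 without W2 and 8 without Pb2, and 10 with only the groups compared in the fit. The glucosyltransferase UGT74F2 (AT2G43820), which inactivates SA, had 32.2, 36.6 and 37.6 CPM with W and 269, 116, 341 and 491 CPM with Pb OS (difference 2.93, SE 0.44, adjusted p = 0.000122). UGT76B1 (AT3G11340), which glucosylates isoleucic acid and SA, had 9.04, 28.7 and 10.9 CPM with W and 280.3, 38.2, 716 and 363 CPM with Pb OS (4.003 (SE 1.13, adjusted p = 0.0127, rising to 0.0715 without W1 and 0.057 without Pb3)). The SA synthesis genes ICS1 (EDS16 in the table, AT1G74710) (isochorismate synthase) and CBP60G (AT5G26920) (its activator) were not called, with differences of -0.11 (SE 0.63, adjusted p = 0.916) and 0.48 (SE 0.58, adjusted p = 0.572). PBS3 (AT5G13320), which acts on isochorismate, rose (difference 2.75, SE 0.93, adjusted p = 0.0333, rising to 0.087 to 0.149 without W1, W3, Pb3 or Pb4), and so did ICS2 (AT1G18870) and the SA receptor NPR3 (AT5G45110), by 0.82 (SE 0.26, adjusted p = 0.0253, rising to 0.0818 to 0.098 without W2, W3 or Pb4) and 1.07 (SE 0.36, adjusted p = 0.0321, rising to 0.0526 to 0.138 without W1, W2, W3, Pb3 or Pb4). None of the 6 genes of pipecolate and pathogenesis-related proteins was called. PR1 (AT2G14610), the classical SA marker, had 0.205, 26.0 and 0.707 CPM in the W libraries and 33.7, 0.195, 674 and 1.46 CPM in the Pb OS libraries, where the spread within each group exceeded the difference (difference 2.56, SE 2.92, adjusted p = 0.547).

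Pattern receptors and their kinases were called higher in 8 of 27 (29.6%) and lower in none, against 11.6% and 15% of all genes. 2 to 8 higher genes were called over the 7 fits without 1 library, at 2 without Pb4, 3 without W3 and 4 without W1, W2 or Pb3. The greatest difference was in RLK7 (LRR_XI-23 in the table, AT1G09970), a receptor of PIP peptides, with 198, 218 and 166 CPM with W and 553, 417, 925 and 937 CPM with Pb OS (difference 1.80, SE 0.24, adjusted p = 5.78e-05). The flagellin receptor FLS2 (AT5G46330), the chitin receptor CERK1 (AT3G21630) and the NADPH oxidase RBOHD (AT5G47910) were not called, with differences of 0.05 (SE 0.31, adjusted p = 0.922), 0.14 (SE 0.16, adjusted p = 0.559) and -0.10 (SE 0.17, adjusted p = 0.698). Genes with a CRK symbol, which names cysteine-rich receptor kinases and also CDPK-related kinases, held 5 higher and 4 lower members of 43, or 11.6% and 9.3%, against 11.6% and 15% of all genes. The higher members numbered 1 without W3 and 2 without Pb3 or Pb4. With the batches fitted by time 9 were higher and 7 lower. The higher ones were CRK39 (AT4G04540) (difference 2.71, SE 0.87, adjusted p = 0.0254, rising to 0.0556 to 0.11 without W1, W3, Pb3 or Pb4), CRK28 (AT4G21400), CRK29 (AT4G21410), CRK3 (AT1G70530) and CRK4 (AT5G24430), the last 4 with differences of 0.60 to 1.01 and CRK4 being annotated as a CDPK family kinase. CRK29 (0.0691 without W3), CRK3 (0.0522 to 0.102 without W1, W3, Pb1, Pb3 or Pb4) and CRK4 (0.115 to 0.159 without W2, W3, Pb3 or Pb4) lost their call, with these adjusted p. On chromosome 4, CRK21 (AT4G23290) had 62.2, 84.9 and 93.8 CPM with W and 11.1, 16.6, 18.7 and 21.4 CPM with Pb OS (difference -2.27, SE 0.44, adjusted p = 0.000982), and CRK22 (AT4G23300) and CRK10 (AT4G23180) fell likewise, with differences of -1.84 (SE 0.30, adjusted p = 0.000255) and -1.74 (SE 0.29, adjusted p = 0.000311), while CRK8 (AT1G49580) on chromosome 1, annotated as a CDPK family kinase, also fell (difference -0.79, SE 0.25, adjusted p = 0.0223, rising to 0.0555 to 0.108 without W1, W3, Pb3 or Pb4). These chromosome 4 paralogs lie in tandem arrays, and how reads shared between them were split is not known.

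Enzymes of detoxification made up the next group. Glutathione transferases were higher in 14 of 34 and lower in 4, with a median of 1.12. The tau-class gene GSTU3 had 0.387, 0.247 and 0.204 CPM with W and 5.72, 1.67, 20.5 and 19.7 CPM with Pb OS (difference 4.88, SE 0.76, adjusted p = 0.00019), its neighbour GSTU4 (AT2G29460) had 9.05, 14.3 and 8.47 CPM with W and 78.7, 36.3, 193 and 166 CPM with Pb OS (difference 3.23, SE 0.74, adjusted p = 0.0034), and GSTU2 (AT2G29480) in the same tandem array also rose (difference 3.97, SE 0.64, adjusted p = 0.000236). The 4 lower members were GSTU20 and GSTF11 (AT3G03190) of aliphatic GS synthesis, GSTU18 (AT1G10360) and GSTU27 (AT3G43800), the last 3 with differences of -2.33, -2.34 and -2.11. None of these calls was lost without 1 library. UDP-glycosyltransferases, which attach sugars to hormones and xenobiotics, were higher in 25 of 78 and lower in 6. There were 16 to 26 higher genes over the 7 fits without 1 library, at 16 without W1. The lower genes numbered 3 without W3 and 2 without Pb4. UGT73B4 (AT2G15490) had 1.72, 0.928 and 0.382 CPM with W and 12.3, 6.30, 14.8 and 17.2 CPM with Pb OS (difference 3.81, SE 0.93, adjusted p = 0.00522). Class III peroxidases held 10 higher and 4 lower genes of 27, or 37% and 14.8%, against 11.6% and 15% of all genes. 6 to 11 higher genes were called over the 7 fits without 1 library, at 6 without W1. The lower ones were PER67 (AT5G58390), PER63 (AT5G40150), PER12 (AT1G71695) and PER42 (AT4G21960), with differences of -2.91 to -1.19. They numbered 2 without W1, W2, W3, Pb3 or Pb4. PER67 (0.0633 to 0.146 without W1, W2, W3, Pb3 or Pb4) and PER42 (0.0667 to 0.187 without W1, W2, W3, Pb1, Pb3 or Pb4) lost their call, with these adjusted p. PER62 (AT5G39580), a secreted peroxidase, changed by 4.32 (SE 0.76, adjusted p = 0.000458), from 3, 1 and 1 reads in the W libraries to 35, 61, 38 and 114 reads in the Pb OS libraries.

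**Figure D3:**
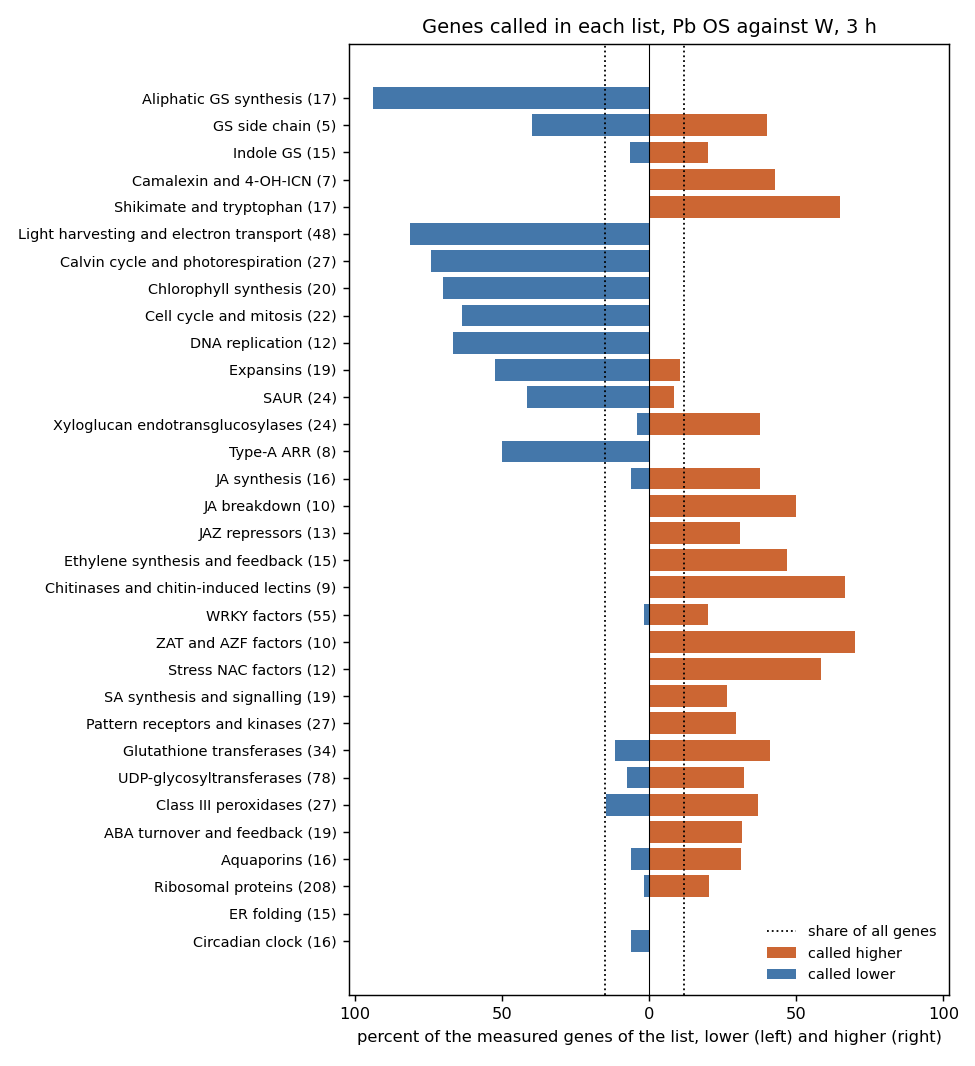
Percent of the measured genes of 32 lists called higher (orange, right) or lower (blue, left) with Pb OS, with the number measured in brackets. The dotted lines are the shares among all 18899 genes, 11.6% and 15%. Lists of light harvesting, the Calvin cycle, chlorophyll, aliphatic GS and DNA replication lie wholly to the left, and lists of tryptophan, JA breakdown, NAC and ZAT factors wholly to the right.

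Most nuclear photosynthesis genes were called lower. Of 48 measured nuclear genes of light harvesting and electron transport 39 were called lower (81.2%) and none higher, against 15% and 11.6% of all genes. All 48 differences were negative with a median of -1.14. In 47 genes every Pb OS library lay below every W library, which held for 16.5% of all genes. There were 18 to 40 lower genes over the 7 fits without 1 library, at 18 without Pb3, 20 without W3 and 21 without W1. These are the most abundant transcripts of the leaf, and the 10 most abundant genes of a library took 9.28, 9.25 and 10.5% of the reads with W and 5.76, 7.42, 6.37 and 6.85% with Pb OS. LHCB5 (AT4G10340), an antenna protein of photosystem II, had 5294, 4871 and 6087 CPM with W and 1247, 2390.0, 1291 and 2109 CPM with Pb OS (difference -1.68, SE 0.42, adjusted p = 0.0059). LHCA1 (AT3G54890), of photosystem I, had 5919, 5680.0 and 6819 CPM with W and 1413, 2832, 1590.0 and 2298 CPM with Pb OS (difference -1.65, SE 0.41, adjusted p = 0.00562). PSBO1 (AT5G66570), of the oxygen-evolving complex, had 5299, 4504 and 5549 CPM with W and 1753, 2925, 1688 and 2414 CPM with Pb OS (difference -1.26, SE 0.34, adjusted p = 0.00951). Replicate 2 was the highest Pb OS library in each. LHCB1.2 (LHCB1.1 in the table, AT1G29910) and LHCB1.4 (LHB1B1 in the table, AT2G34430), also antenna genes, changed by -2.18 (SE 0.47, adjusted p = 0.00223) and -1.80 (SE 0.46, adjusted p = 0.00633), but the LHCB1 genes are near-identical copies between which reads may have been split.

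In the Calvin cycle and photorespiration 20 of 27 measured genes were lower and none higher, with a median of -1.09. 13 to 21 lower genes were called over the 7 fits without 1 library, at 13 without W1, W3 or Pb3. PRK (AT1G32060), the phosphoribulokinase specific to the cycle, had 1063, 1036 and 1263 CPM with W and 411, 617, 256 and 341 CPM with Pb OS (difference -1.54, SE 0.33, adjusted p = 0.002). GLDP1 (AT4G33010), of the glycine decarboxylase of photorespiration, had 1718, 2022 and 1901 CPM with W and 699, 973, 707 and 740.5 CPM with Pb OS (difference -1.28, SE 0.35, adjusted p = 0.00985). Chlorophyll synthesis was lower in 14 of 20 genes and higher in none, with CHLM (AT4G25080) at 268, 278 and 320.0 CPM with W and 90.9, 151, 60.01 and 94.7 CPM with Pb OS (difference -1.62, SE 0.30, adjusted p = 0.00073). 9 to 14 lower genes were called over the 7 fits without 1 library, at 9 without W3 or Pb3. Of 6 genes of chlorophyll breakdown 2 rose and 1, RCCR (AT4G37000), fell (difference -0.61, SE 0.16, adjusted p = 0.00639). The stay-green gene SGR1 (AT4G22920), which starts the loss of chlorophyll, rose (difference 1.12, SE 0.34, adjusted p = 0.018, rising to 0.068 to 0.115 without W1, Pb3 or Pb4), as did PAO (AT3G44880) (difference 0.49, SE 0.14, adjusted p = 0.0123, rising to 0.0709 without W1). Of the 43 chloroplast-encoded genes 42 were not called, and 22 had the same sign within both plant batches, with median differences of -0.65 in batch 1 and -0.02 in batch 2. Chloroplast and mitochondrial genes together took only 0.0175 to 0.0243% of the reads of the 7 libraries. Chloroplast-encoded genes not called are thus not shown to be unchanged. The libraries were counted from total leaf discs, and fewer cells of a type and less RNA per cell cannot be told apart.

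Of 4 guard cell markers 1 was called lower, MYB60 (AT1G08810) (difference -0.72, SE 0.24, adjusted p = 0.0328, rising to 0.0613 to 0.103 without W1, W2, W3, Pb1 or Pb3), and no marker of the stomatal lineage, epidermis, phloem, xylem, myrosin cells, trichomes or flowers was called, out of 1, 3, 5, 3, 2, 1 and 1 measured. The 3 mesophyll markers, of which 2 are in the photosynthesis lists, were not called and had a median of -0.92. Every Pb OS library lay below every W library in all 3, as it did in 16.5% of all genes. The part of these markers in the lower photosynthesis counts was not tested. CCA1 (AT2G46830), a morning gene, had 1.99, 37.0 and 25.6 CPM in the W libraries and 1.83, 3.27, 33.7 and 19.4 CPM in the Pb OS libraries, with W replicate 1 and Pb OS replicates 1 and 2, all of batch 1, the lowest. TOC1 (APRR1 in the table, AT5G61380), an evening gene, had 213, 44.8 and 42.9 CPM with W and 238, 240.5, 55.6 and 65.04 CPM with Pb OS, with the same 3 libraries the highest. Of 16 clock genes 1 was called, PRR7 (APRR7 in the table, AT5G02810), which fell (difference -0.66, SE 0.13, adjusted p = 0.00088).

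Genes of cell division held few reads in these mature leaves, and most measured members were lower with Pb OS. Of 22 measured genes of the cell cycle and mitosis 14 were called lower and none higher, with a median of -1.74 and 10 to 16 lower genes over the 7 fits without 1 library. KNOLLE (KN in the table, AT1G08560), the syntaxin of the dividing cell plate, had 1.96, 2.18 and 1.25 CPM with W and 0.419, 0.351, 0.221 and 0.0961 CPM with Pb OS (difference -2.89, SE 0.51, adjusted p = 0.000493). CYCD1;1 (CYCD1-1 in the table, AT1G70210), a cyclin that starts the cycle, had 4.61, 2.89 and 4.204 CPM with W and 0.643, 1.29, 0.392 and 0.236 CPM with Pb OS (difference -2.86, SE 0.53, adjusted p = 0.00071), and TPX2 (AT1G03780), of the spindle, fell from 41, 21 and 18 reads in the W libraries to 0, 8, 0 and 3 reads in the Pb OS libraries (difference -3.43, SE 0.68, adjusted p = 0.00115). None of 5 cell cycle inhibitors was called. The cambium regulator WOX4 (AT1G46480) had 2.66, 0.945 and 1.21 CPM with W and 0.430, 0.0670, 0.178 and 0.143 CPM with Pb OS (difference -3.14, SE 0.58, adjusted p = 0.00071). It was the 1 lower gene among 7 measured genes of wound regeneration, of which 2 were higher, with a median of 0.16. These are 14.3% and 28.6%, against 15% and 11.6% of all genes.

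DNA replication genes fell in 8 of 12, with none higher and a median of -1.64. The 6 subunits of the MCM helicase, which opens DNA at replication origins, all fell. MCM2 (AT1G44900) had 7.03, 4.91 and 8.33 CPM with W and 2.21, 2.69, 1.69 and 1.46 CPM with Pb OS (difference -1.75, SE 0.33, adjusted p = 0.000758). MCM3 (AT5G46280) had 6.05, 4.99 and 7.33 CPM with W and 1.60, 1.34, 1.19 and 0.994 CPM with Pb OS (difference -2.26, SE 0.35, adjusted p = 0.00019). MCM4 (AT2G16440) had 5.25, 4.87 and 6.08 CPM with W and 1.23, 1.44, 0.750 and 0.814 CPM with Pb OS (difference -2.40, SE 0.36, adjusted p = 0.00013). MCM5 (AT2G07690), MCM6 (AT5G44635) and MCM7 (AT4G02060) changed by -1.52 (SE 0.34, adjusted p = 0.00254), -2.49 (SE 0.48, adjusted p = 0.000915) and -2.86 (SE 0.49, adjusted p = 0.000384). In all 6 genes the highest Pb OS library was below the lowest W library.

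The site of E2F factors, which drive genes of the S phase, was searched as TTTCCCGC or TTTGGCGC on both strands of the same windows, and neither motif contains the other. It was found in 0.993% of all promoters, in 2.48% of those of genes lower by over 1 log2 unit, in 0.522% of those higher by over 1 unit, and in 5 of the 12 of the replication list (41.7%). The promoters of MCM2 (chr1:16969964-16970213, plus strand), MCM3 (chr5:18773707-18773956, minus strand), MCM4 (chr2:7130730-7130979, minus strand) and MCM6 (chr5:18010668-18010917, minus strand) show where it lies, in capitals and as its reverse complement where it lies on the other strand, in genes of 1 complex that fell together. Each printed promoter holds a match, and those of MCM5 and MCM7 are not printed. With 5 matches in the list, the site is not shared by all MCM genes.
MCM2: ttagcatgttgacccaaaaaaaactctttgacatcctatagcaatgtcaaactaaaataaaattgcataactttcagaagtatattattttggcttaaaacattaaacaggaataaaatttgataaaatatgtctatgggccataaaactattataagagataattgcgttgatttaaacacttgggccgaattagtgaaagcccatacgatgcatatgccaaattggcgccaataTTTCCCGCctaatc
MCM3: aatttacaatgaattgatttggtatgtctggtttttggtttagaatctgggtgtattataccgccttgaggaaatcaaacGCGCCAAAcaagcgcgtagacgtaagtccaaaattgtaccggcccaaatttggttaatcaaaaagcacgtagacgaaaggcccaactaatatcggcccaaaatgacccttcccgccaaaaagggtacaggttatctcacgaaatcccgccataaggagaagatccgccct
MCM4: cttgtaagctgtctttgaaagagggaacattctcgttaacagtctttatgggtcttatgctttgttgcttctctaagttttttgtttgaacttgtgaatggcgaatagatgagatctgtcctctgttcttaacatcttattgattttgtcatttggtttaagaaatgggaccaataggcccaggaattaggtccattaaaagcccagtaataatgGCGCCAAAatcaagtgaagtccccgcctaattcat
MCM6: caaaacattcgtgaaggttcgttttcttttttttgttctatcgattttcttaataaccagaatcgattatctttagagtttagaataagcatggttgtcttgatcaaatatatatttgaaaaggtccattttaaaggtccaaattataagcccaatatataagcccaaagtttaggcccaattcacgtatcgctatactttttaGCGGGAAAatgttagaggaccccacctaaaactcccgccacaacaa
The match starts 14, 170, 35 and 46 bases before the annotated start of the gene.

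**Figure D4:**
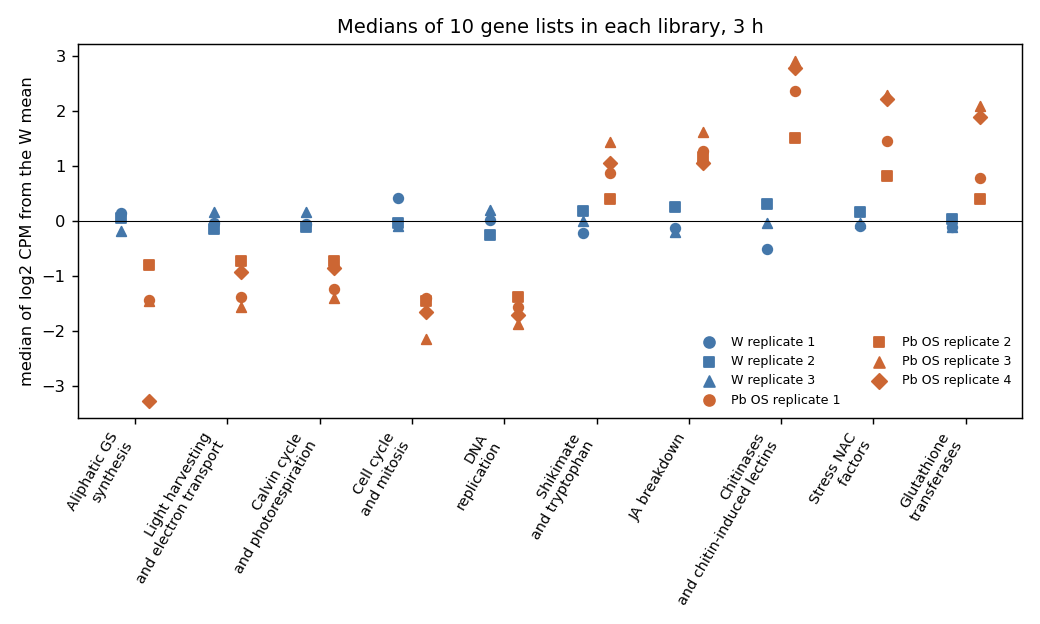
Median, over the genes of each of 10 lists, of the log2 CPM of a library minus the mean of the 3 W libraries. Blue symbols are the 3 W and orange symbols the 4 Pb OS libraries of 3 h, with a symbol for each replicate number. The W and Pb OS libraries do not overlap in any of the 10 lists, and Pb OS replicate 4 stands apart for aliphatic GS synthesis at -3.27.

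Expansins were lower in 10 of 19 and higher in 2, with a median of -1.55. 6 to 10 lower genes were called over the 7 fits without 1 library, at 6 without W1. EXPA6 (AT2G28950) had 37.1, 30.4 and 45.1 CPM with W and 6.002, 12.0, 2.73 and 3.63 CPM with Pb OS (difference -2.85, SE 0.52, adjusted p = 0.000632). The higher ones were ATEXPA10 (AT1G26770) (difference 1.87, SE 0.41, adjusted p = 0.00255) and an expansin-like gene, EXLA1 (AT3G45970), which went from 19.7, 8.76 and 12.6 CPM with W to 83.7, 103, 66.2 and 114 CPM with Pb OS (difference 2.80, SE 0.45, adjusted p = 0.000231). The xyloglucan endotransglucosylases, which cut and rejoin wall polymers, were higher in 9 of 24 and lower in 1. The latter became 3 without Pb2 and 2 with the batches fitted by time. XTH22 (AT5G57560), a touch-induced member, had 23.1, 7.42 and 18.5 CPM with W and 149, 125, 181 and 484 CPM with Pb OS (difference 3.78, SE 0.65, adjusted p = 0.000382). XTH23 (AT4G25810) had 2.23, 1.05 and 2.19 CPM with W and 19.7, 10.5, 31.6 and 39.4 CPM with Pb OS (difference 3.72, SE 0.73, adjusted p = 0.00107), while XTH31 was the member that fell. SAUR genes, early auxin targets of cell expansion, were lower in 10 of 24 and higher in 2. SAUR15 (AT4G38850) had 2.204, 2.48 and 3.85 CPM with W and 0.280, 0.425, 0.651 and 0.349 CPM with Pb OS (difference -2.77, SE 0.47, adjusted p = 0.000336), and the higher ones were PUB16 (AT5G01830) (difference 0.67, SE 0.24, adjusted p = 0.044, rising to 0.0867 to 0.195 without W1, W2, W3, Pb3 or Pb4), which is annotated as an ARM repeat protein, and SAUR36 (AT2G45210), linked to senescence, which had 3.65, 2.42 and 1.96 CPM with W and 16.6, 14.5, 15 and 21.0 CPM with Pb OS (difference 2.68, SE 0.55, adjusted p = 0.00152). The wall synthases also split, as CSLD5 (AT1G02730), which acts in dividing cells, fell from 7.52, 3.63 and 3.27 CPM with W to 0.807, 0.169, 0.316 and 0.487 CPM with Pb OS (difference -3.56, SE 0.58, adjusted p = 0.000249), CSLD2 (AT5G16910) rose from 45.0, 43.3 and 35.7 CPM with W to 108, 88.5, 127 and 132 CPM with Pb OS (difference 1.45, SE 0.21, adjusted p = 7.92e-05), and the cellulose synthases CESA1 (AT4G32410), CESA3 (AT5G05170) and CESA6 (AT5G64740) had differences of 0.02, -0.14 and 0.13 and were not called.

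The type-A response regulators, feedback targets of cytokinin, were lower in 4 of 8 and higher in none. 2 to 5 lower genes were called over the 7 fits without 1 library, at 2 without W3 or Pb1. ARR5 (AT3G48100) had 4.76, 3.37 and 4.31 CPM with W and 0.938, 1.85, 2.603 and 1.27 CPM with Pb OS (difference -1.41, SE 0.35, adjusted p = 0.00592). ARR8 (AT2G41310) had 6.82, 9.73 and 10.5 CPM with W and 3.35, 4.23, 2.495 and 3.72 CPM with Pb OS (difference -1.39, SE 0.27, adjusted p = 0.00103). ARR6 (AT5G62920) and ARR9 (AT3G57040) had differences of -1.66 (SE 0.53, adjusted p = 0.0248, rising to 0.0602 to 0.0777 without W1, W3 or Pb1) and -1.74 (SE 0.55, adjusted p = 0.0227, rising to 0.0589 to 0.103 without W2, W3, Pb1 or Pb3). ARR4 (AT1G10470) was not called (difference 0.10, SE 0.22, adjusted p = 0.766). Among 24 Aux/IAA repressors 3 were higher, IAA2 (AT3G23030), IAA18 (AT1G51950) and IAA16 (AT3G04730), by 0.51 to 1.17, and 4 lower, among them IAA8 (AT2G22670) and IAA12 (AT1G04550) at -0.91 and -1.06. These are 12.5% and 16.7% of the list, against 11.6% and 15% of all genes. Without W1 none was higher, and 7 were lower without Pb2 or with the batches fitted by time. IAA2 (0.0613 without W1), IAA18 (0.0576 to 0.0666 without W1, W3 or Pb3) and IAA16 (0.0503 without W1) lost their call, with these adjusted p. IAA29 (AT4G32280), induced in shade and warmth, had 3.80, 2.96 and 3.26 CPM with W and 0.206, 0.791, 0.274 and 0.893 CPM with Pb OS (difference -2.90, SE 0.61, adjusted p = 0.00175), and IAA14 (AT4G14550) fell as well (difference -3.74, SE 0.69, adjusted p = 0.000702). The auxin conjugases of the GH3 family were higher in 3 of 5. There were 1 to 4 higher genes over the 7 fits without 1 library, at 1 without W1, and 1 with voom on the recovered reads. GH3.3 (AT2G23170) and GH3.5 (AT4G27260) rose by 4.25 (SE 1.18, adjusted p = 0.0114, rising to 0.113 without W1) and 1.37 (SE 0.44, adjusted p = 0.0251, rising to 0.0876 to 0.0991 without W1, W3, Pb3 or Pb4). GH3.2 had 5, 12 and 2 reads in the W libraries and 105, 41, 181 and 626 in the Pb OS libraries (difference 4.68, SE 1.11, adjusted p = 0.00421).

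Abscisic acid (ABA) feedback genes were higher in 6 of 19 and lower in none. The phosphatase HAI1 (SAG113 in the table, AT5G59220), induced by ABA, had 1.58, 2.90 and 2.84 CPM with W and 17.61, 10.7, 43.3 and 56.9 CPM with Pb OS (difference 3.49, SE 0.80, adjusted p = 0.00329). CYP707A1 (AT4G19230), which breaks ABA down, had 17.8, 16.7 and 17.2 CPM with W and 37.6, 21.6, 66.8 and 53.0 CPM with Pb OS (difference 1.25, SE 0.33, adjusted p = 0.00775). The synthesis gene NCED3 (AT3G14440) was not called (difference 0.35, SE 0.58, adjusted p = 0.696). Aquaporins were higher in 5 of 16 and lower in 1. 3 to 5 higher genes were called over the 7 fits without 1 library, at 3 without W1, W2, W3 or Pb4, and 9 with the batches fitted by time, 9 with only the groups compared in the fit and 3 with the block of 4 label numbers. The lower count was 0 without W1, 3 without Pb2 and 2 with the batches fitted by time. TIP1;1 (TIP1-1 in the table, AT2G36830), the main vacuolar water channel, had 669, 799 and 816 CPM with W and 1969, 1935, 2080.0 and 2188 CPM with Pb OS (difference 1.42, SE 0.22, adjusted p = 0.000166), with no overlap. The plasma membrane channels PIP1;4 (PIP1.4 in the table, AT4G00430), PIP1;1 (PIP1-1 in the table, AT3G61430), PIP1;3 (PIP1-3 in the table, AT1G01620) and PIP2;5 (PIP2-5 in the table, AT3G54820) rose by 0.75 to 1.60, and PIP2;8 (PIP2-8 in the table, AT2G16850) fell (difference -1.90, SE 0.50, adjusted p = 0.00841, rising to 0.059 without W1). PIP1;4 (0.0623 without W1), PIP1;1 (0.0578 to 0.235 without W1, W2, W3, Pb3 or Pb4) and PIP2;5 (0.0568 to 0.214 without W2, W3, Pb1 or Pb4) lost their call, with these adjusted p. In phenylpropanoid and lignin synthesis 5 of 19 genes were higher and 1 lower. 3 to 9 higher genes were called over the 7 fits without 1 library, at 3 without W1, W3, Pb3 or Pb4 and 9 without Pb2, and 12 with the batches fitted by time, 8 with no block and 11 with only the groups compared in the fit. CAD7 (AT4G37980), a cinnamyl alcohol dehydrogenase family gene induced by elicitors, had 87.5, 89.5 and 76.2 CPM with W and 322, 200.4, 365 and 609 CPM with Pb OS (difference 2.05, SE 0.30, adjusted p = 0.000107), and 4CL2 (AT3G21240), CAD5 (AT4G34230) and C4H (CYP73A5 in the table, AT2G30490), also of the pathway, rose by 1.3998 to 1.79. C4H (0.0564 to 0.14 without W1, W3, Pb3 or Pb4) lost its call, with these adjusted p. PAL3 (AT5G04230) fell (difference -2.30, SE 0.59, adjusted p = 0.00666), and PAL1 (AT2G37040), the main entry enzyme, was not called (difference 1.70, SE 0.64, adjusted p = 0.0521).

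Cutin and wax genes were higher in 1 of 26, CER1 (AT1G02205) (difference 0.89, SE 0.32, adjusted p = 0.0458, rising to 0.0577 to 0.245 without W1, W2, W3, Pb1, Pb3 or Pb4), and lower in 3. These shares, 3.85% and 11.5%, were below the 11.6% and 15% of all genes. GPAT8 (AT4G00400), an acyltransferase of cutin synthesis, had 34.4, 27.9 and 33.5 CPM with W and 5.78, 8.58, 8.26 and 8.62 CPM with Pb OS (difference -2.05, SE 0.25, adjusted p = 3.2e-05). CYP77A6 (AT3G10570) and LACS2 (AT1G49430), also of cutin synthesis, changed by -2.54 (SE 0.63, adjusted p = 0.00556) and -1.95 (SE 0.50, adjusted p = 0.00741). In the mitochondrial stress list 4 of 6 genes rose. There were 1 to 5 higher genes over the 7 fits without 1 library, at 1 without W1 and 2 without W3, Pb3 or Pb4. NDA2 (AT2G29990), an alternative NADH dehydrogenase, had 14.1, 19.2 and 16.9 CPM with W and 35.9, 36.1, 35.6 and 40.4 CPM with Pb OS (difference 1.16, SE 0.20, adjusted p = 0.000454), and the alternative oxidase AOX1A (AT3G22370) changed by 0.86 (SE 0.23, adjusted p = 0.00994, rising to 0.0762 without W1). NDB2 (AT4G05020) and OM66 (HSR4 in the table, AT3G50930) rose by 1.41 (SE 0.48, adjusted p = 0.0354, rising to 0.0843 to 0.168 without W1, W3, Pb3 or Pb4) and 1.83 (SE 0.64, adjusted p = 0.0384, rising to 0.0678 to 0.234 without W1, W3, Pb3 or Pb4).

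Genes named as ribosomal proteins were higher in 42 of 208 and lower in 4, all 4 of them nuclear genes of the plastid ribosome (RPL12C, RPL3A, RPL12A and RPL21), with a median of 0.45. That count varied with single libraries. There were 10 to 146 higher genes over the 7 fits without 1 library, at 10 without W1 or Pb4, 13 without W2, 16 without Pb3 and 146 without Pb2, and 99 with the batches fitted by time and 88 with only the groups compared in the fit.

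Of the arabinogalactan proteins, glycoproteins of the wall, 10 of 31 were higher and 5 lower. These are 32.3% and 16.1%, against 11.6% and 15% of all genes. AGP1 (AT5G64310) had 7.26, 6.14 and 9.18 CPM with W and 27.01, 23.97, 51.8 and 58.4 CPM with Pb OS (difference 2.33, SE 0.44, adjusted p = 0.000789). The lower ones were FLA1 (AT5G55730) (difference -2.44, SE 0.70, adjusted p = 0.0141, rising to 0.0639 without W3 and 0.0528 without Pb3), FLA12 (AT5G60490), FLA8 (AT2G45470), AGP41 (AT5G24105) and FLA4 (AT3G46550), the last 4 at -2.01 to -0.76. They numbered 2 without W3 or Pb3. FLA12 (0.0638 without W3), AGP41 (0.144 without W1 and 0.0803 without Pb3) and FLA4 (0.0541 to 0.0979 without W2, W3 or Pb3) lost their call, with these adjusted p. Calmodulin-like proteins, which sense calcium, were higher in 6 of 30 and lower in 2, or 20% and 6.67%, against 11.6% and 15% of all genes. The 2 that fell were CML10 (AT2G41090) (difference -1.53, SE 0.33, adjusted p = 0.00209) and CML9 (AT3G51920) (difference -1.17, SE 0.41, adjusted p = 0.0387, rising to 0.0848 to 0.126 without W2, W3, Pb1 or Pb2). 2 to 9 higher genes were called over the 7 fits without 1 library, at 2 without W3, Pb3 or Pb4 and 3 without W1 or W2, and 10 with the batches fitted by time and 15 with only the groups compared in the fit. Among 14 glutamate receptor-like channels, some of which carry wound signals between leaves, 1 was higher and 3 lower. The shares were 7.14% and 21.4%, against 11.6% and 15% of all genes. GLR1.3 (AT5G48410) rose (difference 3.64, SE 1.03, adjusted p = 0.0128, rising to 0.0882 without W3 and 0.0576 without Pb3) and GLR3.6 (AT3G51480), GLR3.7 (AT2G32400) and GLR3.5 (AT2G32390) fell, GLR3.6 by the most at 9.25, 6.08 and 7.35 CPM with W and 3.11, 4.50, 1.54 and 2.03 CPM with Pb OS (difference -1.54, SE 0.29, adjusted p = 0.00088). GLR3.7 (0.0571 to 0.133 without W2, W3, Pb2, Pb3 or Pb4) and GLR3.5 (0.0623 to 0.212 without W1, W2, Pb3 or Pb4) lost their call, with these adjusted p. PROPEP1 (PEP1 in the table, AT5G64900), the precursor of a danger peptide, fell from 22, 24 and 21 reads in the W libraries to 15, 12, 0 and 1 in the Pb OS libraries (difference -2.51, SE 0.72, adjusted p = 0.0131, rising to 0.0685 without Pb3 and 0.0524 without Pb4). None of 9 genes of sugar transport and cleavage was called.

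In the endoplasmic reticulum, none of 15 folding genes was called, although all 15 differences were positive, with a median of 0.42.

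At 24 h few genes were called. The same comparison of Pb OS with W at 24 h, with 4 libraries in each group, called 8 genes higher (0.0423%) and 2 lower (0.0106%), and 634 genes had an unadjusted p under 0.05. The median SE was 0.23 at 24 h and 0.25 at 3 h. The change of the difference between the times, tested in the same fit, was called for 1116 genes (5.91%), 650 with a positive change (3.44%) and 466 with a negative one (2.47%). That number was 3009 without Pb OS replicate 2 of 3 h, 336 and 395 without W replicates 1 and 3 of 3 h, 459 and 471 without Pb OS replicates 3 and 4 of 3 h, 637 and 586 without W replicates 1 and 3 of 24 h, and 649 and 673 without Pb OS replicates 1 and 3 of 24 h. In the full fit it was called for 447 of the genes higher at 3 h and 643 of those lower at 3 h. The change contains the 3 h difference by which these genes were called, so it is not independent of that call. The libraries of both times share no sample. The 2 lower genes at 24 h were the laccase LAC5 (AT2G40370) (-3.999, adjusted p = 0.0291) and MYB41 (AtMYB41 in the table, AT4G28110), a regulator of suberin (-3.69, adjusted p = 0.0302).

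The genes called at both times were 5, all of them higher each time. CYP81D11 (AT3G28740), a cytochrome P450 of detoxification, had 1.53, 1.93 and 0.763 CPM with W and 14.2, 10.5, 35.1 and 19.2 CPM with Pb OS at 3 h (difference 3.77, SE 0.35, adjusted p = 2.34e-06). At 24 h it had 0.330, 0.253, 0.230 and 0.179 CPM with W and 3.004, 4.01, 3.35 and 5.04 CPM with Pb OS, a difference of 3.96 (adjusted p = 4.57e-07). The others called at both times were XTH11 (AT3G48580), CYP76C2 (AT2G45570), LECRK52 (AT1G70130) and JOX2, with differences of 2.999, 2.76, 2.95 and 1.25 at 24 h.

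Of the genes with the greatest differences at 3 h, EXO had a difference of -0.19 at 24 h, with a change between the times of -5.05 (SE 0.63, adjusted p = 0.000534). EXPA8 had 0.10 at 24 h and a change of 4.59 (SE 0.78, adjusted p = 0.00573), and AT1G76470 had 0.63 and a change of -6.00 (SE 0.95, adjusted p = 0.00395). FAR5 had opposite signs, 6.70 at 3 h and -3.06 at 24 h, with a change of -9.76 (SE 1.14, adjusted p = 0.000378). Its levels at 24 h were 3.01, 1.74, 1.996 and 1.74 CPM with W and 0.0550, 0.115, 0.566 and 1.06 CPM with Pb OS, and the difference at 24 h by itself was not called (adjusted p = 0.235). For PER33, AT3G59930, NHL10 and GSTU3 the differences at 24 h were 2.68, 2.73, 1.15 and 3.34, none of them called. Of the genes lowest at 3 h, AT1G73600, AT1G13650, XTH31 and AT4G12980 had -0.87, -0.29, -0.72 and -0.43 at 24 h, also not called.

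Of the lists, replication genes had a median of -1.64 at 3 h and 0.48 at 24 h, and the change was called for 8 of 12. For MCM3 the change was 2.9999 (SE 0.48, adjusted p = 0.00395). For light harvesting the medians were -1.14 and 0.04, and the change was called for 5 of 48 genes. In aliphatic GS synthesis they were -1.73 and -0.29, with the change called for 4 of 17 genes. MYB28 had -0.68 at 24 h, not called (adjusted p = 1), and its change between times was not called either (adjusted p = 0.16).

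**Figure D5:**
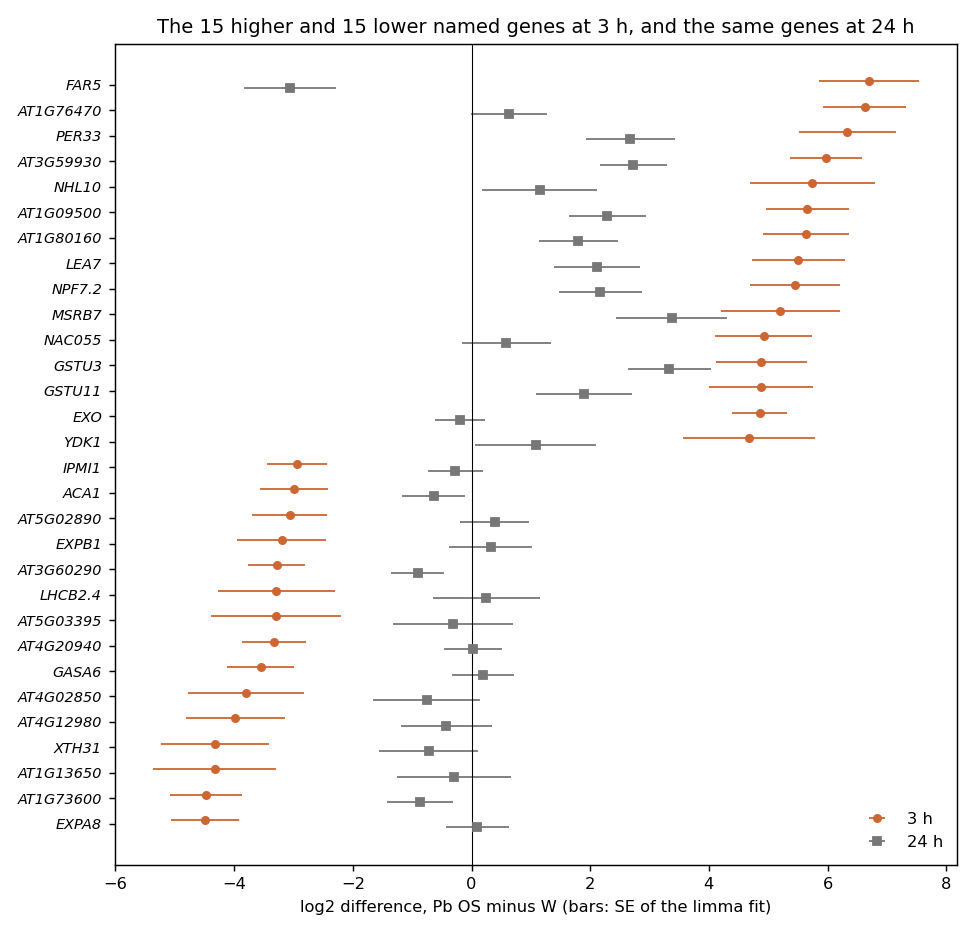
Log2 difference of Pb OS minus W at 3 h (orange circles) and 24 h (grey squares) for the 15 higher and 15 lower genes named by rule at 3 h, with the SE of the fit as bars. The genes were chosen on the 3 h values. The grey square of EXO lies at -0.19 and that of FAR5 at -3.06.

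The unwounded control and the Sl OS libraries give the levels a frame. The comparison of Sl OS with W called 2746 genes higher (14.5%) and 3549 lower (18.8%), but it shares the 3 W libraries with the comparison of Pb OS, so the values are set side by side only. MAM1 differed from W by -1.75 with Pb OS and -1.71 with Sl OS, MCM3 by -2.26 and -2.13, LHCB5 by -1.68 and -2.04, and NAC055 by 4.92 and 5.14. Set against each other in a test without the W libraries, the secretions differed in 0 genes (0%) by limma, where the smallest adjusted p was 0.105. An unadjusted p under 0.05 was found in 768 genes, and voom on recovered reads called 0. For MYB28 the difference of Pb OS minus Sl OS was 0.14 (SE 0.43, adjusted p = 1). In the unwounded control MAM1 had 365, 654, 530.5 and 628 CPM against W levels of 827, 711 and 594 CPM, and CYP94B3 had 0.131, 0.209, 0.396 and 0.417 CPM against W levels of 184, 183 and 117 CPM.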

How the data were processed

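RNA of leaf discs (150 ng per library) was sequenced as 150 bp reads in 27 libraries. According to the study's methods and the submitters' processing notes, reads were trimmed with Cutadapt (v2.5), cleared of rRNA with fastq_screen (v0.11.1), filtered with reaper (v15-065), aligned to Arabidopsis genome build TAIR10 (release 10.39) with STAR (v2.5.3a) and assigned to genes with htseq-count (v0.9.1). Genes with at least 1 CPM in at least 1 sample were kept, values were scaled by TMM in edgeR (v3.30.3), and the authors deposited log2 CPM values with a prior count of 1 after removal of batch effects with limma. The deposited table of 18899 genes was used as it stands, and a second table with the authors' own fold changes and adjusted p-values of each treatment against control was not used. Whether strand was used in counting is not given in the sources used here.

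The values turned out to be corrected for 2 plant batches, replicates 1 and 2 against 3 and 4 with W replicate 1 of 3 h in the former and W replicates 2 and 3 in the latter, whereas the methods state 4 batches. Whole reads were recovered from them by undoing this correction and the scaling, and 100% of the values were whole within a tolerance of 0.02 reads (largest deviation 0.0042). CPM in the text are 2 to the power of the deposited log2 values, so a gene with no read holds a value just above 0, and reads are the recovered counts.

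Differences were fitted with limma (v3.58.1 in R v4.3.3) on the deposited log2 values of all 27 libraries, with a mean per group, the 2 batches as a term and a trended prior variance, two-sided, with Benjamini-Hochberg adjustment over all 18899 genes, and genes were called at an adjusted p under 0.05. Sequences and coordinates come from RefSeq TAIR10.1, which places 18834 genes of the table.

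The comparison, its members and the gene lists were chosen with earlier results of these data known. Lists are described by counts and medians with no test of the list. Lists of gene families were taken by gene symbol. Some members of the lists are counted but not reported here by name. Named genes are the 15 called higher and 15 called lower with the largest absolute difference, no overlap between groups and a mean of at least 5 CPM in the higher group, the anchor genes and the 3 called members with the largest difference of each list, and the 10 called genes with the largest difference in mean CPM in each direction. The first 5 of the 15 in each direction are also given at 24 h. Outside this rule, chosen after their values were seen, are PIP1;3, ERS2, IAA12, GSTU18, AOC4, SOT17, ICS2, ATEXPA10, ILL6, CRK8, IAA18, FMOGS-OX2, LECRK52, CYCD1;1, CRK3, PER12, MCM5, IAA8, GSTU4, GSTF10, GLR3.5, LAC5, CML10, ARR8, AT2G43590, SAUR36, FLA8, CYP76C2, WRKY45, GSTF11, IAA16, CYP81D11, JAZ11, GSTU27, EXLA1, FLA4, CML9, PIP2;5, ERF1A, CRK28, CRK29, PER42, CRK10, XTH23, PUB16, JOX2, MAM3, AGP41, CRK4, GSH2, PER63, WRKY16, NPR3, MCM3, PER67, FLA12, RPL3A, RPL12A and RPL21.

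Alternatives to the fit were the batch term, the libraries fitted, the prior variance, the count added before logs, a filter at a mean of 1 CPM, centring on library medians, voom on the recovered reads and leaving out each library.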

Additional observations from a re-analysis of the deposited data

Results flagged for a closer look

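For 76 of the named genes the difference of Pb OS minus W was not the same at both times, as the change of the difference, 24 h minus 3 h, was called in the limma fit (adjusted p under 0.05). The values are log2 differences, and no explanation was tested. The change contains the 3 h difference, by which most of these genes were called, so its sign is partly fixed by that call.

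Genes called higher with Pb OS at 3 h had a negative change. It was the greatest in FAR5 (-9.76), AT1G76470 (-6.00), EXO (-5.05), NAC055 (-4.34), XTH22 (-4.26), AT1G80160 (-3.84), XTH23 (-3.68), SBT3.3 (-3.60), BCB (-3.39), AT1G09500 (-3.37) and EXLA1 (-3.30). After them came AT3G59930 (-3.24), ZAT12 (-3.15), AT2G43590 (-2.85), AGP1 (-2.76), UGT74F2 (-2.44), NAC019 (-2.33), CAD7 (-2.06), FMOGS-OX4 (-2.04), GSTU19 (-1.84), ACX1 (-1.68) and SPE2 (-1.66). The change was smaller in TIP1;1 (-1.48), CS (-1.35), CSLD2 (-1.30), RLK7 (-1.28), CRK28 (-1.10), NDA2 (-1.09) and JAZ11 (-0.95).

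Genes called lower at 3 h had a positive change. The greatest were in EXPA8 (4.59), IAA14 (4.28), TPX2 (4.09), CSLD5 (4.02), GASA6 (3.74), AT1G73600 (3.61), MCM7 (3.603), EXPB1 (3.52) and IAA29 (3.52). Next came AT5G02890 (3.45), CYCD1;1 (3.41), KNOLLE (3.36), AT4G20940 (3.35), MCM6 (3.199), SAUR15 (3.05), EXPA6 (3.004), MCM3 (2.9999) and LAX2 (2.80). Lower values were found in MCM4 (2.79), IPMI-SSU3 (2.67), HAT3 (2.64), GSTU20 (2.58), MCM2 (2.52), AT3G60290 (2.38), LHCB1.2 (2.303), GPAT8 (2.29) and IPMI-SSU2 (2.28). Still lower were GSTU18 (2.19), AAP6 (2.18), GSTU27 (2.17), LHCB1.4 (2.12), PER12 (2.11), CRK21 (2.11), MCM5 (1.98), CRK22 (1.77) and CML10 (1.77). The last were CRK10 (1.64), CHLM (1.60), SULTR4;2 (1.58), SULTR2;1 (1.51), ARR8 (1.37), RPL12C (1.35), RPL3A (1.09) and WRKY16 (0.72). Not called at 3 h but with a called change were MYB41 (-3.81), LAC5 (-3.79) and VSP2 (3.73).

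In 9 of 262 named genes 1 of the 4 Pb OS libraries of 3 h stood apart, judged by its gap to the nearest library as a share of the range of the 4 log2 values and a limit of 0.83, which chance passes in about 1 of 20 such groups. Replicate 3 was the highest in OPR3 (share 0.89). Replicate 4 was the highest in NDA2 (share 0.89) and EXPB1 (share 0.83). Replicate 1 was the lowest in AT4G12980 (share 0.95) and GPAT8 (share 0.90). Replicate 2 was the lowest in MCM6 (share 0.93) and CRK3 (share 0.87). Replicate 4 was the lowest in HAT3 (share 0.83) and CYP79F2 (share 0.83).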

How the results depend on the processing

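Among the 262 named genes no called difference changed sign under any of the 12 settings other than leaving out a library, nor without any 1 library, and 3021 of these tests stayed on the same side of the threshold against 101 that lost and 11 that gained a call. The counts of genes higher and lower at 3 h stayed within 1.5 times under these settings. With voom on the recovered reads they were 2273 and 2821. Of the counts of list members in each direction, 1511 stayed within 1.5 times and 121 moved further. With log2(CPM + 5) the genes higher and lower by over 1 log2 unit were 528 and 469, as the added count shrinks differences of low genes. With the 2 batches fitted for each time the change from 3 h to 24 h was called for 3076 genes, and Pb OS and Sl OS differed in 9 genes, against 7 with log2(CPM + 5), and the cause was not tested.

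Leaving out 1 library gave 1215 to 3198 higher and 1717 to 3679 lower genes, 638 to 1336 and 941 to 1967 by over 1 log2 unit, and 336 to 3009 genes with a change between the times. Named genes lost a call in 255 of the fits without a library and gained one in 5. The same-numbered W and Pb OS libraries of 3 h had deviations correlated at 0.42, -0.26 and 0.08 for numbers 1 to 3, so the label numbers do not pair the samples. By the batch correction W2 and W3 belong with Pb OS replicates 3 and 4, so the W labels may stand for replicates 1, 3 and 4 in some order. Pairing W1 with Pb1, W2 with Pb3 and W3 with Pb4 gave correlations of 0.42, 0.43 and 0.32, and W2 with Pb4 and W3 with Pb3 gave 0.12 and 0.08. A replicate block by label number gave 2107 higher and 2744 lower genes. Numbering the W libraries 1, 3, 4 or 1, 4, 3 gave 1998 and 1915 higher and 2623 and 2503 lower genes, and no replicate block 2367 and 3028. The replicate block with the numbers 1, 3, 4 ended the call of 13 named genes, among them TAT3, PIP1;1, CER1, MYB51, ILL6, WRKY33, ERF1A, MYC4, PER42, CRK4 and PER67. No named gene gained one.

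Genes with few reads in W had W levels near the lowest value of the table, and the size of their difference was set by the added count. Library depth of the 7 libraries gave 0.0310 to 0.0384 CPM per read before the batch correction, so levels below this were not measured. After the correction a level slightly above this can also stand for no read.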

Other observations

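Some genes outside the lists above moved with Pb OS, and they were picked after their values were seen. On the higher side, BSMT1 (AT3G11480), which methylates benzoic and salicylic acid to volatile esters, had 0.496, 3.94 and 2.12 CPM with W and 38.5, 6.18, 106 and 38.0 CPM with Pb OS (difference 4.27, SE 0.86, adjusted p = 0.00127). The geranyllinalool synthase GES (AT1G61120), which starts a volatile homoterpene, had 1.25, 7.73 and 4.75 CPM with W and 64.5, 10.1, 161 and 59.6 CPM with Pb OS (difference 3.80, SE 1.24, adjusted p = 0.028, rising to 0.051 to 0.17 without W1, W3, Pb1, Pb3 or Pb4). The subtilase SBT3.3 (AT1G32960), tied to immune priming, had 1.69, 4.51 and 0.749 CPM with W and 44.9, 9.26, 55.5 and 63.7 CPM with Pb OS (4.297 (SE 0.68, adjusted p = 0.000217)). The groups did not overlap in any of these 3 genes. The blue copper protein BCB (AT5G20230) and the senescence gene SAG13 (AT2G29350) rose by 3.64 (SE 0.57, adjusted p = 0.000184) and 3.93 (SE 1.04, adjusted p = 0.00844, rising to 0.0653 without W1), and the trypsin inhibitor KTI1 (AT1G73260) by 4.11 (SE 1.51, adjusted p = 0.0483, rising to 0.0617 to 0.224 without W1, W2, W3, Pb1, Pb3 or Pb4).

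On the lower side, the sucrose exporter SWEET13 (AT5G50800) had 8.87, 26.8 and 8.31 CPM with W and 2.77, 1.61, 1.65 and 1.80 CPM with Pb OS (difference -2.73, SE 0.48, adjusted p = 0.000454), and the amino acid carrier AAP6 (AT5G49630) had 40.3, 60.5 and 41.7 CPM with W and 7.004, 6.02, 15.02 and 7.49 CPM with Pb OS (difference -2.50, SE 0.45, adjusted p = 0.000558). The iron reductase of leaves FRO6 (AT5G49730) and the auxin influx carrier LAX2 (AT2G21050) had differences of -2.85 (SE 0.63, adjusted p = 0.00246) and -2.62 (SE 0.55, adjusted p = 0.00184). HAT3 (AT3G60390), a leucine zipper factor of leaf patterning, had 9.23, 6.35 and 7.88 CPM with W and 1.44, 1.62, 1.497 and 0.812 CPM with Pb OS (difference -2.58, SE 0.31, adjusted p = 3.26e-05). Every Pb OS library lay below every W library in SWEET13, AAP6 and HAT3.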
